A study of Mus musculus with 15 samples.

Results

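Chemokine and interleukin transcripts were followed through 15 RNA-seq libraries of dystrophic mouse muscle and heart. The members were the protein-coding genes whose symbol begins with Ccl, Cxcl, Ccr, Cxcr or Il and a number, together with Cx3cl1, Cx3cr1 and Tnf, with Il33 and Il1rl1 left out. The rule found 142 members among the 56980 genes of the deposited table, of which 21631 are annotated as protein coding. A member was followed in a tissue where it reached 0.5 TPM (transcripts for each 1000000 in a library, a level corrected for transcript length) in at least 3 libraries, which 70 members did in tibialis anterior (TA) muscle and 61 in heart. Both tissues kept 57 members, TA alone kept 13, heart alone kept 4, and 68 were kept in neither, 16 of them listed at 0 in every library.

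All mice were DBA/2J-mdx, a strain that lacks dystrophin and develops muscular dystrophy, and no wild-type library was analysed here. They received vehicle or D + Q, the senolytic pair of dasatinib and quercetin, and the study asked how lowering the number of senescent cells alters dystrophic muscle and heart. TA came from mice treated from 3 to 5 months of age for 2 months, with 4 D + Q–treated and 4 vehicle-treated libraries, and heart from mice treated from 12 to 16 months of age for 4 months, with 3 and 4. By label, vehicle TA replicates 2 and 4 were female and the other 6 TA mice male, while each heart group held both sexes. The tissues therefore differ in age and in length of treatment as well. The labels list each library as its own sample, so p-values measure the spread between these samples.

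Chemokines are small secreted proteins that draw leukocytes along a gradient, and they act on receptors that couple to G proteins. Interleukins bind receptors built from a specific subunit and a shared one, and most signal through JAK kinases and STAT factors, while the IL-1 family signals through MyD88 and NF-kB. In dystrophic muscle, damaged fibres are cleared by macrophages whose monocyte precursors arrive through the receptor Ccr2, and senescent cells are known to secrete Il6 and several chemokines.

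The tissue labels were checked first. The summed level of 4 skeletal muscle genes lay between 31123.5 and 39923.1 TPM in TA and between 1329.32 and 1782.26 TPM in heart, and that of 4 heart muscle genes between 12101.2 and 15891.6 TPM in heart and between 11.1404 and 29.7788 TPM in TA. Xist and Y-linked levels matched the labelled sex in 14 of 15 libraries, the exception being D + Q heart replicate 3, which is labelled male. That library had Xist at 47.2 TPM and a mean Y-linked level of 0.0110 TPM, which reads as female. By these levels every D + Q heart read as female, while vehicle hearts held both sexes. Vehicle TA replicate 2 held the highest value of 40.2% of the 16298 genes tested in TA, and vehicle heart replicate 2 that of 30.0% of the 16132 tested in heart. The values carry no record of sequencing depth, and how many reads stand behind each is unknown.

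Among the members kept, the CC chemokines numbered 17 of 27, the CXC chemokines 10 of 13, the chemokine receptors 7 of 18, the interleukin and TNF ligands 11 of 39 and the interleukin receptor subunits 26 of 42. In TA, the highest mean level over 8 libraries belonged to Cxcl14 at 189 TPM, a chemokine made by stromal and epithelial cells. Il6st, the shared signalling subunit gp130 of the IL-6 family, followed at 85.8 TPM, the eosinophil attractant Ccl11 at 64.4 TPM and Cxcl12, the ligand of Cxcr4, at 55.9 TPM. Ccl6, Ccl2, Ccl7 and Ccl9 came next, at 46.1 down to 27.5 TPM. In heart, Il6st at 74.3 TPM and Cxcl12 at 61.1 TPM led, followed by Ccl21a at 49.7 TPM, which guides Ccr7-bearing lymphocytes and dendritic cells, and Il10rb at 47.2 TPM, a subunit shared by the receptors of the IL-10 family. Il11ra1, Ccl8, Ccl6 and Cxcl14 followed, at 25.5 down to 17.0 TPM. The filter fell between close values. The third-highest library was at 0.531 TPM for Cxcl13 and 0.559 TPM for Il27ra, just inside it in TA, and at 0.391 TPM for Ccl4 and 0.329 TPM for Ccr7, just outside. In heart the same value was 0.512 TPM for Cxcl10 and 0.536 TPM for Cxcr6 inside, and 0.369 TPM for Cxcl2 and 0.356 TPM for Il2rb outside.

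The most visible feature of the TA values was the difference between mice of one group. Ccl2, the main attractant of Ccr2-bearing monocytes, had levels, in the order of replicates 1 to 4, of 143, 7.77, 1.88 and 53.7 TPM under D + Q and of 13.8, 5.4, 53.8 and 2.79 TPM under vehicle. D + Q replicates 1 and 4 and vehicle replicate 3 were thus the 3 highest libraries, and the groups overlapped. Ccl7, a neighbour of Ccl2 that also acts on Ccr2, gave 121, 2.94, 0.531 and 53.2 TPM in D + Q and 6.14, 2.09, 47.7 and 1.11 TPM in vehicle muscle, with the same 3 libraries on top. Cxcl1, a neutrophil attractant, gave 101, 2.25, 0.764 and 6.52 TPM in D + Q and 5.79, 1.21, 16.4 and 0.629 TPM in vehicle muscle. These 3 libraries were again the highest, although D + Q replicate 4 was far below D + Q replicate 1.

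Il6, the cytokine that signals through Il6st, reached 20.3 TPM in D + Q replicate 1 and 5.23 TPM in vehicle replicate 3, was listed at 0 in D + Q replicate 3, and lay between 0.151 and 0.836 TPM in the other 5 libraries. Cxcl5, a further neutrophil attractant, reached 7.87 and 6.01 TPM in D + Q replicates 1 and 4 and 4.72 TPM in vehicle replicate 3, against 0 to 0.260 TPM in the other 5. D + Q replicate 4 was thus among the high libraries for Cxcl5 but not for Il6. Il1b, the inflammatory cytokine processed by caspase-1, gave 5.22, 0.306, 0.372 and 2.31 TPM in D + Q and 1.20, 1.23, 4.91 and 0.251 TPM in vehicle muscle, and the same 3 libraries were the highest. Cxcl12 showed no such split, at 41.9 to 57.2 TPM in D + Q and 51.2 to 72.1 TPM in vehicle muscle.

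**Figure D1:**
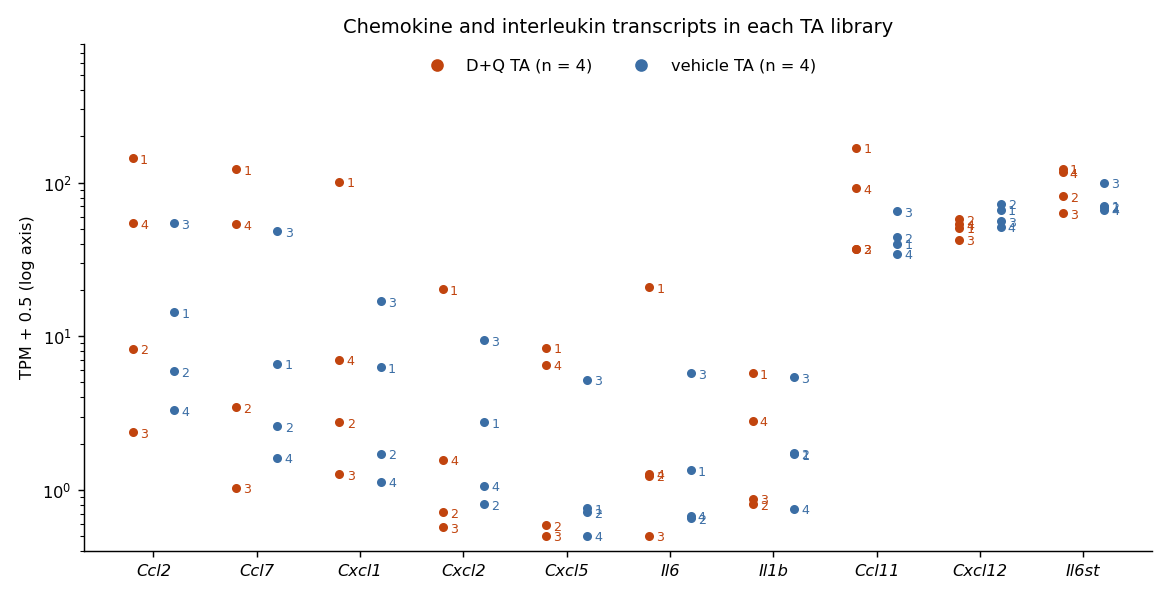
Level of 10 members in each TA library, as TPM + 0.5 on a log axis, with D + Q–treated mice in red, vehicle-treated mice in blue and the replicate number beside each point. D + Q replicates 1 and 4 and vehicle replicate 3 are the highest libraries for Ccl2, Ccl7, Cxcl1, Cxcl5 and Il1b, while Cxcl12 spans only 41.9 to 72.1 TPM.

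Counted over the 70 members, these 3 libraries were the 3 highest for 23 (32.9%), against 6.39% of all 16298 genes. The libraries, and the members named here for them, were singled out after the values were seen, so the count is a description. The 23 members comprise 14 of 37 ligands and 9 of 31 receptor subunits and receptors. Beside those named above they include the macrophage-attracting Ccl12, Ccl6 and Ccl9, the receptor Ccr1, the IL-4 and IL-13 receptor subunits Il4ra and Il13ra1, and the IL-1 receptor Il1r1. Il4ra stood at 73.0 and 39.5 TPM in D + Q replicates 1 and 4 and 36.5 TPM in vehicle replicate 3, and at 7.0 to 11.2 TPM in the other 5. D + Q replicate 1 alone held the highest value of 29 of 70 members (41.4%, against 15.8% of all genes). Marker levels moved as well. The summed level of 4 lymphatic endothelial genes was 61.4, 57.9 and 48.9 TPM in these 3 libraries and 14.3 to 22.1 TPM in the other 5. The sum of 4 dendritic cell genes was also highest in them, at 14.6, 13.1 and 10.9 TPM against 5.71 to 10.02 TPM. That of 8 macrophage genes was 694, 624 and 601 TPM against 337 to 745 TPM. That of 5 neutrophil genes was 28.9, 26.1 and 24.6 TPM, against 4.51 to 23.8 TPM in the others, and the defining neutrophil gene Ly6g was at 0.0404, 0.483 and 0 TPM in them and listed at 0 in the other 5. Such sums can hide genes that differ from each other. In the lymphatic list, Pdpn was called higher in D + Q TA than in D + Q heart, and Prox1 and Flt4 lower. That contrast is between tissues, so it does not show which genes raised the lymphatic sum in these 3 TA libraries. The part of these cell types in the result was not tested. In whole tissue more cells of a type and more RNA per cell cannot be told apart.

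The spread within a group was put in numbers as the standard deviation (SD) of log2(TPM + 0.5) around the group means. Its median was 0.531 over the 70 members in TA and 0.282 over all genes tested there, and 0.251 over 61 members and 0.177 over all genes in heart. In TA, 32 of 70 members (45.7%) lay above the 90th percentile of all genes, and in heart 15 of 61 (24.6%). Among members with a mean of at least 5 TPM, where low levels weigh less, 18 of 29 in TA (62.1%) and 6 of 19 in heart (31.6%) lay above the 90th percentile of such genes. Ligands varied more than receptors in TA, with median SDs of 0.712 and 0.379. Ccl7 had the largest SD in TA at 2.76, followed by Cxcl1 at 2.32, Ccl2 at 2.26, Cxcl2 at 2.02, Il6 at 1.95 and Cxcl5 at 1.89. In heart Ccl2 and Ccl7 had SDs of only 0.131 and 0.135, and the largest belonged to Ccl21e at 1.47, the IL-1 antagonist Il1rn at 0.795 and Ccl9 at 0.706. Ccl21e was listed at 0 in the hearts where its identical copy Ccl21b was at 7.38 and 5.47 TPM. Reads of the copies cannot be told apart, so its SD may not show a difference between mice. It is counted among the 15 members above the 90th percentile. Of 57 members kept in both tissues, 53 (93.0%) varied more in TA, as did 80.8% of all genes.

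**Figure D2:**
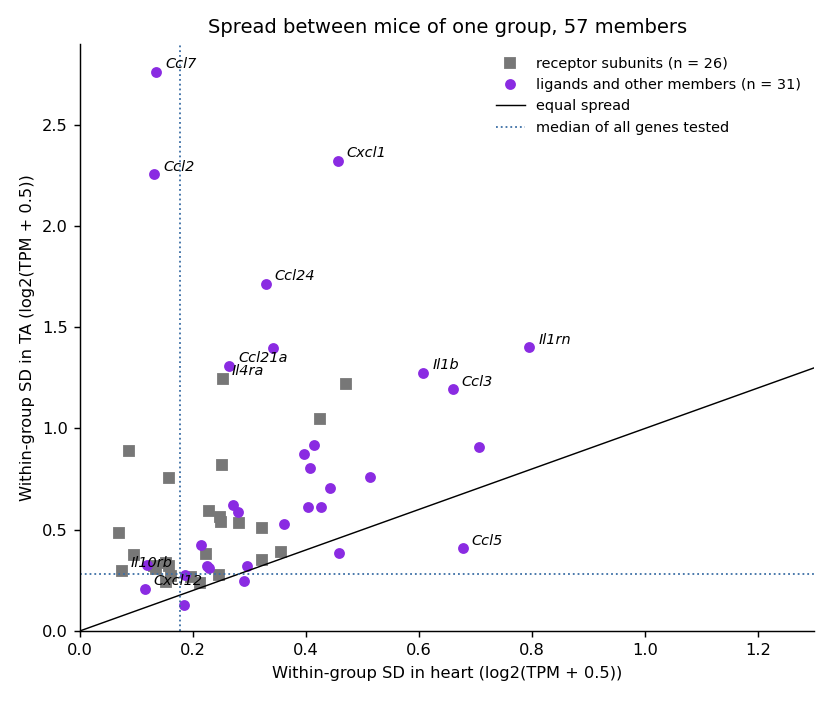
Within-group SD of log2(TPM + 0.5) in heart (horizontal) and TA (vertical) for the 57 members kept in both tissues, with receptors and receptor subunits as squares and other members as circles. Above the diagonal lie 53 members, and Ccl7, Cxcl1 and Ccl2 stand farthest from it; dotted lines mark the medians of all genes tested, 0.282 in TA and 0.177 in heart.

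The promoters of the 6 members with the largest spread in TA are shown because 5 of them hold the same short motif. Each line gives the 250 bases before the start of the canonical transcript, read 5′ to 3′ from the plus strand of GRCm39, the build of the deposited values. Capitals mark matches to GGG and TTCC parted by any 3 bases, on either strand, a short form of the NF-kB binding sequence.
Ccl2 (chr11:81926147-81926396): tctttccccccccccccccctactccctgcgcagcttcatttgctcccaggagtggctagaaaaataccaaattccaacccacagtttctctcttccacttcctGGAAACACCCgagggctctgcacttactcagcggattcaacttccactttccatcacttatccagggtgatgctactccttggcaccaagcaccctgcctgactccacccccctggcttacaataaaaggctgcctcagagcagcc
Cxcl1 (chr5:91038844-91039093): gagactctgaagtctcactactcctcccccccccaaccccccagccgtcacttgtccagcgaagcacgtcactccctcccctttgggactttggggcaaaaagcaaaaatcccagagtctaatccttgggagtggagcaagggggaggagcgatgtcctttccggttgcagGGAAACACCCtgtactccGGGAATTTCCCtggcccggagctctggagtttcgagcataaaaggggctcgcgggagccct
Cxcl2 (chr5:91051480-91051729): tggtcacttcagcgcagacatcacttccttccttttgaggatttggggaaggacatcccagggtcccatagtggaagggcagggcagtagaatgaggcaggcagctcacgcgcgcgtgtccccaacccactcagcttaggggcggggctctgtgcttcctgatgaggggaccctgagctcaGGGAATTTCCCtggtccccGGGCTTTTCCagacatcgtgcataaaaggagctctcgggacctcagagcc
Cxcl5 (chr5:90906987-90907236): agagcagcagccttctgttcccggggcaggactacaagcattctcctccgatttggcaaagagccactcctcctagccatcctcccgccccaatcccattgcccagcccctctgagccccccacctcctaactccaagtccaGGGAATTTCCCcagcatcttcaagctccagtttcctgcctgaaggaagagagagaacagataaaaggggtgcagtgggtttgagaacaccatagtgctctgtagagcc
Il6 (chr5:30217862-30218111): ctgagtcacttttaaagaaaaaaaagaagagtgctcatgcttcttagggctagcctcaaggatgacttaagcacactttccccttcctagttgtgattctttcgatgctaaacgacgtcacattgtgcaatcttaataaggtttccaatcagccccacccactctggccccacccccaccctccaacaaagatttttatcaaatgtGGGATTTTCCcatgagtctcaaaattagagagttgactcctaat
Ccl7 (chr11:81936282-81936531): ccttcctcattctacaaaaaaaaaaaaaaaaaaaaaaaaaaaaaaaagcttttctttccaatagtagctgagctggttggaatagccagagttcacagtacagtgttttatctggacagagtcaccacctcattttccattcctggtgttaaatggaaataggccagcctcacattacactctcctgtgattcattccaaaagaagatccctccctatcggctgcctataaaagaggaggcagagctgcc
Motifs were searched on both strands in the same 250-base window, and overlapping matches are run together in capitals. GGG, any 3 bases and TTCC was found in 5 of these 6 promoters, in 14 of 70 members kept in TA (20%) and in 4.72% of 21631 protein-coding promoters. TGANTCA, the core of the AP-1 site, was found in 8 of 70 (11.4%) and 6.19%, and TATAAA in 13 of 70 (18.6%) and 12.0%. Of the 6 promoters shown, 2 held TGANTCA (33.3%) and 1 held TATAAA (16.7%). The pattern of GGG, any 3 bases and TTCC gave 3 matches within 79 bases of the start in Cxcl1 and in Cxcl2. In each of these genes a single stretch was matched on both strands and was counted for each strand. Ccl7 held no match to this pattern but held both other motifs. A match is a description of the letters and does not show binding.

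For the treatment in TA, log2(TPM + 0.5) was fitted with limma, and a single surrogate variable, an estimated factor of hidden variation, served as covariate. A gene was called at a Benjamini-Hochberg adjusted p under 0.05 over all genes and an absolute log2 fold change above 0.5. No member was called (0 of 70), and none of all 16298 genes was (0%), with a smallest adjusted p of 0.999. limma without the trend in variance called none either. The study's own test, run on counts, reported genes higher and lower under D + Q in TA, with Ccl2 among the higher ones. Counts were not used here, and the cause of the difference was not tested. Log2 fold changes were above 0 for 30 members (33.6% of all genes) and below 0 for 40, with a median of -0.06 against -0.07 over all genes. Only Cxcl2 had an unadjusted p under 0.05 (log2 fold change -1.10, SE 0.43, adjusted p = 0.999, limma), 1 of 70 members against 2.99% of all genes. It was at 19.7, 0.212, 0.0703 and 1.07 TPM in D + Q and 2.25, 0.305, 8.92 and 0.559 TPM in vehicle muscle, and the groups overlapped. Without the covariate its log2 fold change was -0.19 (SE 1.11, adjusted p = 0.999). No member had groups that did not overlap, against 1.52% of all genes.

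By role, the median log2 fold changes in TA were -0.11 over 16 CC chemokines, -0.05 over 10 CXC chemokines, -0.21 over 10 interleukin and TNF ligands, -0.07 over 6 chemokine receptors and 0.05 over 25 interleukin receptor subunits. Ccl2 gave a log2 fold change of -0.21 (SE 0.30), Il6 of -0.30 (SE 0.41), Il1b of -0.59 (SE 0.29) and Tnf of -0.21 (SE 0.32), all at an adjusted p of 0.999 (limma). The surrogate variable was highest in the 3 libraries named above, at 0.703 and 0.228 in D + Q replicates 1 and 4 and 0.295 in vehicle replicate 3, and below 0 in the other 5. It was estimated from the same libraries, and the sign of several members turned with it. Without a covariate Ccl2 gave 0.84 (SE 1.23, adjusted p = 0.999), with labelled sex in its place -0.50 (SE 1.39, adjusted p = 1.00), while Il6 gave 0.57 (SE 1.07) and Il1b -0.02 (SE 0.71) without a covariate. Members above 0 numbered 42 of 70 without a covariate (39.5% of all genes) against 36 with sex (38.0% of all genes).

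Hearts of D + Q–treated and vehicle-treated mice were compared in the same way, with labelled sex in the model. No member was called (0 of 61), while 51 of 16132 genes were (0.316%), 17 higher and 34 lower. limma without the trend called no member. An unadjusted p under 0.05 was found for 8 of 61 members, against 17.6% of all genes. Log2 fold changes were above 0 for 24 members (49.5% of all genes) and below 0 for 37, with a median of -0.09 against -0.0025 over all genes. Without vehicle heart replicate 2, which held the highest value of 25 of 61 members, 31 were above 0 and 28 below. Over all heart libraries, with sex taken from Xist and Y-linked levels, 18 were above 0 (40.1% of all genes) and 43 below. The median in that fit was -0.16 against -0.05 over all genes.

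The smallest adjusted p in heart belonged to Il2rg, the common gamma chain shared by the receptors for IL-2, IL-7, IL-15 and others. It was at 9.22, 9.31 and 10.3 TPM in D + Q and 7.20, 7.58, 7.04 and 6.94 TPM in vehicle hearts, a log2 fold change of 0.40 (SE 0.08, adjusted p = 0.0980, limma). All D + Q–treated hearts lay above all vehicle hearts, but the test over all genes was not passed. Ccl2 was at 6.4, 5.78 and 4.84 TPM in D + Q and 4.09, 3.62, 3.75 and 4.03 TPM in vehicle hearts (log2 fold change 0.48, SE 0.12, adjusted p = 0.117). Its groups did not overlap either. Il13ra1 was also without overlap, at 18.6, 19.8 and 16.4 TPM against 15.7 to 16.4 TPM, its lowest D + Q value being only just above the highest vehicle value (log2 fold change 0.17, SE 0.08, adjusted p = 0.30). In the other direction, Ccl19, which shares the receptor Ccr7 with Ccl21a, was listed at 0 and at 0.362 and 0.470 TPM in D + Q hearts and at 0.636 to 1.35 TPM in vehicle hearts (log2 fold change -0.87, SE 0.30, adjusted p = 0.196). Il7, the survival factor of lymphocytes, was at 0.335 to 0.520 TPM against 0.532 to 0.647 TPM (log2 fold change -0.26, SE 0.15, adjusted p = 0.433).

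Groups without overlap in heart were thus 3 members above (9.63% of all genes) and 2 below (5.57%). Without D + Q heart replicate 3, the library whose sex genes did not match its label, the log2 fold changes were 0.32 for Il2rg, 0.65 for Ccl2, 0.27 for Il13ra1, -1.26 for Ccl19 and -0.35 for Il7, with adjusted p from 0.207 to 0.544 (limma). With all libraries and sex taken from Xist and Y-linked levels, they were 0.37, 0.55, 0.20, -1.08 and -0.25 in the same order. Adjusted p in that fit was 0.219 for Il2rg and ran from 0.190 for Ccl2 to 0.626 for Il7 (limma). Ccl11 was at 7.32, 8.67 and 7.89 TPM in D + Q and 14.2, 9.28, 8.59 and 19.0 TPM in vehicle hearts (log2 fold change -0.50, SE 0.20, adjusted p = 0.250), with overlapping groups. Il1b gave -0.60 (SE 0.30, adjusted p = 0.349) and Tnf -0.06 (SE 0.28, adjusted p = 0.940), and Il6 was at no more than 0.163 TPM in any heart. The summed level of 4 atrial muscle genes was 5.64 to 9.54 TPM in D + Q and 176 to 1305 TPM in vehicle hearts, and that of 5 red cell genes 26.8 to 122 TPM and 346 to 1231 TPM, with no defining marker at 0 in either group. Their part in the heart values was not tested.

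**Figure D3:**
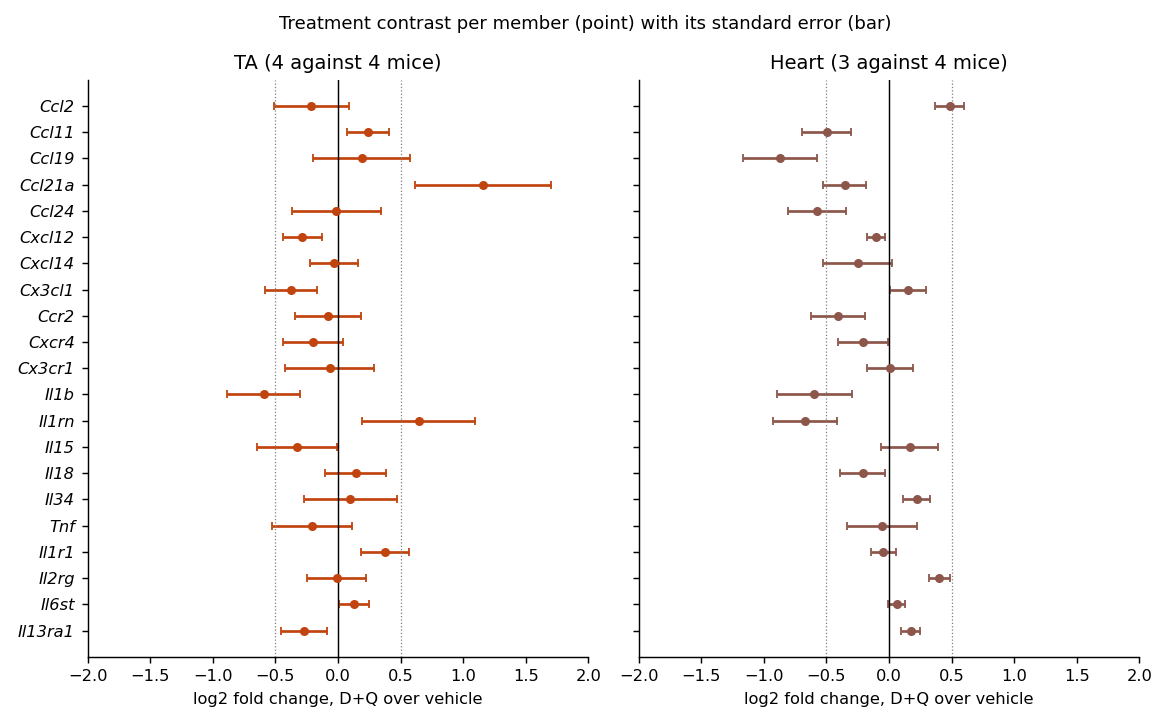
Log2 fold change of D + Q over vehicle for 21 members in TA (left) and heart (right), points being the limma estimate and bars its standard error, with dotted lines at the minimum of 0.5 in either direction. No member was called in either tissue, although the bars, which span 1 standard error to each side, do not reach 0 for several members in both.

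The treatment contrasts of the tissues were compared with an interaction term in a fit of all 15 libraries. None of 57 members was called, against 0.0335% of 14914 genes, and limma without the trend called none. Ccl21a had the smallest p and a difference of 1.93 on the log2 scale (SE 0.88, adjusted p = 0.974, limma). It was the only member of 57 under 0.05 without adjustment, against 4.93% of all genes. Without D + Q TA replicate 1, 25 members were above 0 and 31 below, against 34 and 23 with all libraries, where 37.9% of all genes were above 0.

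Levels in TA and heart were compared within each treatment. Between vehicle-treated mice, 14 of 57 members were higher in TA and 5 lower at the thresholds above, together 33.3% against 33.7% of all 14914 genes (22.3% higher and 11.4% lower). Between D + Q–treated mice, 16 were higher and 6 lower, 38.6% against 34.7% of all genes (20.9% and 13.8%). The share called was close to that of all genes in both groups. The contrasts use the same libraries as the treatment contrasts, and tissue, age and length of treatment cannot be told apart in them. Sex differed as well between the D + Q groups, since all 4 TA mice were labelled male and 2 of 3 heart mice female. By Xist and Y-linked levels every D + Q heart read as female, so sex cannot be told apart from tissue there. With labelled sex in the model, 18 of 19 vehicle calls and 18 of 22 D + Q calls were left, those of Il2rg in vehicle mice and of Il17d, Il17ra, Il1r1 and Il4ra in D + Q mice being lost (adjusted p = 0.0513 to 0.103, limma). The median log2 fold change over all genes was 0.17 in vehicle and 0.10 in D + Q mice, and that of the members was 0.20 and 0.46. After median-of-ratios rescaling the median over all genes was 0.004 in both. That of the members after rescaling is not given here. Members called in both contrasts numbered 14, each in the same direction, namely 10 higher and 4 lower in TA. The share of all genes called in both is not given here, so this count is a description.

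Among the ligands, Cxcl14 was at 173, 123, 297 and 86.4 TPM in vehicle TA and 32.0, 12.2, 12.6 and 20.3 TPM in vehicle hearts, a log2 fold change of 3.07 (SE 0.40, adjusted p = 1.62e-05, limma). In D + Q–treated mice it was at 102 to 310 TPM in TA and 12.7 to 16.5 TPM in heart (3.71, SE 0.44). Every TA library lay above every heart library. Ccl11 gave 1.82 (SE 0.40) in vehicle and 3.01 (SE 0.43) in D + Q mice, at 33.9 to 168 TPM in TA and 7.32 to 19.0 TPM in heart. Ccl9, an attractant of myeloid cells, gave 2.13 (SE 0.50) and 2.38 (SE 0.54), at 11.3 to 55.6 TPM in TA and 2.09 to 8.69 TPM in heart. Ccl6, encoded beside it, gave 1.04 (SE 0.37, adjusted p = 0.0330) and 1.33 (SE 0.40, adjusted p = 0.0141), and its vehicle groups overlapped. The vehicle call of Ccl6 ended after median-of-ratios rescaling (adjusted p = 0.0582, limma) and without vehicle TA replicate 2 or 3 or vehicle heart replicate 1 or 4 (adjusted p = 0.0660 to 0.113). Its D + Q call ended without D + Q heart replicate 1 (adjusted p = 0.0586).

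Ccr2, the receptor through which monocytes follow Ccl2 and Ccl7, followed the same direction as Ccl9 and Ccl6. It was at 3.17 to 6.66 TPM in vehicle TA and 1.14 to 2.30 TPM in vehicle hearts (log2 fold change 1.37, SE 0.28, adjusted p = 0.00105), and gave 1.86 (SE 0.30) in D + Q mice. Ccl5, an attractant of T cells and monocytes, did not differ past the thresholds, with -0.15 (SE 0.35, adjusted p = 0.754) and 0.03 (SE 0.37, adjusted p = 0.956, limma). Il1rl2, the IL-36 receptor, gave 0.92 (SE 0.29) and 1.32 (SE 0.31), and its vehicle call ended without vehicle heart replicate 3 (adjusted p = 0.0527). The summed level of 8 macrophage genes was 337 to 601 TPM in vehicle TA and 207 to 330 TPM in vehicle hearts, and 409 to 745 TPM against 180 to 277 TPM in D + Q mice. Their part in these differences was not tested.

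Some members passed the thresholds in D + Q mice and not in vehicle mice, and in none of them did the interaction pass. Il1rn was at 20.6, 12.4, 1.1 and 7.11 TPM in D + Q TA and 0.622, 1.03 and 0.141 TPM in D + Q hearts (2.88, SE 0.77, adjusted p = 0.00711), against 1.21 (SE 0.71, adjusted p = 0.190) in vehicle mice. Its interaction was 1.67 (SE 1.05, adjusted p = 0.974, limma). Il4ra gave 1.93 (SE 0.62, adjusted p = 0.0201) and Ccl3 2.00 (SE 0.65, adjusted p = 0.0231) in D + Q mice. Both calls ended without D + Q TA replicate 1 (adjusted p = 0.0537 and 0.0510), as did those of Il17ra, Il1r1 and Il2ra, so that 17 of the 22 calls were left. They ended as well without D + Q heart replicate 1 (0.0627 and 0.0519) or 3 (0.0590 and 0.0894), and that of Il4ra without D + Q TA replicate 4 (0.0575). Without D + Q heart replicate 3, the library at odds with its labelled sex, 16 of the 22 calls were left. Cx3cl1, the membrane-bound ligand of Cx3cr1, was lower in D + Q TA at 2.05 to 5.36 TPM than in D + Q hearts at 6.14 to 8.31 TPM (-0.83, SE 0.25, adjusted p = 0.0132), and its receptor gave 0.38 (SE 0.32, adjusted p = 0.380). The call of Cx3cl1 ended without D + Q heart replicate 2 (adjusted p = 0.0678).

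**Figure D4:**
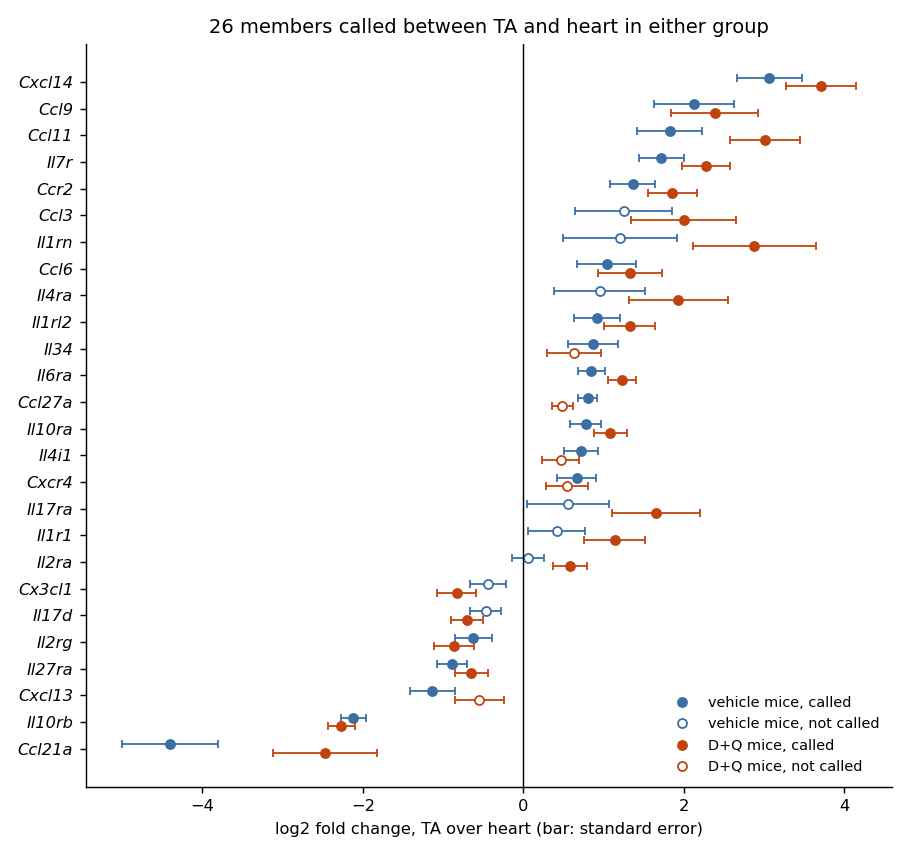
Log2 fold change of TA over heart for 26 members called in vehicle-treated or D + Q–treated mice, points being limma estimates and bars standard errors, filled where called. Cxcl14 lies at 3.07 and 3.71 and Ccl21a at -4.40 and -2.47, and every member drawn has the same sign in both groups.

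Members lower in TA were led by Ccl21a. Its levels were 5.13, 2.27 and 5.16 TPM in vehicle TA replicates 1 to 3, listed at 0 in replicate 4, and 52.1, 72.2, 42.4 and 52.6 TPM in vehicle hearts, a log2 fold change of -4.40 (SE 0.60). In D + Q–treated mice they were 3.30 to 15.2 TPM and 39.5 to 48.5 TPM (-2.47, SE 0.65, adjusted p = 0.00627), a call that missed the threshold at a pseudocount of 0.1 (adjusted p = 0.0521, limma). GRCm39 holds several almost identical Ccl21 genes on chromosome 4, so the division of reads among them is uncertain. Whether the DBA/2J-mdx mice carry the same copies and bases was not examined. The coding sequences of Ccl21b, Ccl21d, Ccl21e and Ccl21f were identical over 399 bases, and that of Ccl21a, at chr4:42772859-42773995 on the minus strand, differed from that of Ccl21e, at chr4:42612121-42613253 on the plus strand, at 2 positions. The stretches around them are shown because they are where coding reads can separate the genes. Capitals mark the differing base, and positions count from the first coding base in GENCODE M39.
Ccl21a, coding bases 64 to 104: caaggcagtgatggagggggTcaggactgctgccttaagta
Ccl21e, coding bases 64 to 104: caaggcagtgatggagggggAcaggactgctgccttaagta
Ccl21a, coding bases 174 to 214: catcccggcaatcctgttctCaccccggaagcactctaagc
Ccl21e, coding bases 174 to 214: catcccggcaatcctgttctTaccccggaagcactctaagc
Ccl21e was at 3.52 to 5.19 TPM in the 5 hearts where Ccl21b was listed at 0, and was itself listed at 0 in vehicle hearts 2 and 4, where Ccl21b was at 7.38 and 5.47 TPM. Each heart therefore showed 1 of these 2 identical copies. Summed over the 5 genes, the level was 0 to 6.09 TPM in vehicle TA, 3.53 to 15.7 TPM in D + Q TA, 45.9 to 79.6 TPM in vehicle hearts and 43.9 to 53.3 TPM in D + Q hearts, so the tissues remained apart.

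Il10rb differed by tissue, with a within-group SD of 0.0732 in heart and 0.298 in TA. It was at 11.0, 11.9, 11.4 and 7.24 TPM in vehicle TA and 44.6, 46.7, 47.4 and 45.4 TPM in vehicle hearts (log2 fold change -2.12, SE 0.15, adjusted p = 2.13e-08), and gave -2.27 (SE 0.16) in D + Q mice. Its exons share 27.9% of their bases with the same-strand gene Gm21970, which was at no more than 0.101 TPM in any library. Its partner Il10ra, the specific IL-10 receptor subunit, differed the other way, at 0.78 (SE 0.19) and 1.08 (SE 0.21), with 2.21 to 4.10 TPM in TA and 0.847 to 1.70 TPM in heart. Il2rg was lower in TA in both groups, at -0.62 (SE 0.23, adjusted p = 0.0427) and -0.87 (SE 0.25, adjusted p = 0.0121), and its vehicle call ended under 10 of the alternatives tried. Il27ra, a receptor subunit for IL-27, gave -0.89 (SE 0.19) and -0.65 (SE 0.20), at 0.176 to 0.694 TPM in TA and 0.886 to 1.44 TPM in heart, and its D + Q call ended without D + Q heart replicate 3 (adjusted p = 0.0796). Cxcl13, a B cell attractant, gave -1.13 (SE 0.28, adjusted p = 0.00409) in vehicle mice and -0.55 (SE 0.30, adjusted p = 0.164) in D + Q mice.

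The Il7 pair was divided between the tissues. Il7r, the specific IL-7 receptor subunit, was at 5.79, 3.69, 5.45 and 3.67 TPM in vehicle TA and 0.865, 1.20, 1.20 and 0.915 TPM in vehicle hearts (log2 fold change 1.72, SE 0.28, adjusted p = 0.000132), and gave 2.28 (SE 0.30) in D + Q mice. Il7 was kept in heart alone, at 0.335 to 0.647 TPM, and lay at 0.0124 to 0.151 TPM in TA. A member kept through 1 tissue had to differ, so such genes were left out of the contrasts between tissues given above. Il18r1 and Cxcr6 were the other heart-only members beside Ccl21e. The highest TA-only member was Il12a, the p35 subunit of IL-12 and IL-35, at 2.26 to 5.81 TPM in TA and 0.0577 to 0.456 TPM in heart. Cxcl2, Il6, Cxcl5 and Il20rb followed it.

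Cxcl12, Il6st, Tnf and Il18 showed like levels in the vehicle groups of both tissues, while Cxcr4 and Il34 were called there. Cxcl12 was at 56.7 to 68.0 TPM in vehicle hearts, with a log2 fold change of -0.04 (SE 0.12, adjusted p = 0.804) between the vehicle groups, while its receptor Cxcr4 gave 0.66 (SE 0.24, adjusted p = 0.0365), a call lost after rescaling (adjusted p = 0.0742, limma) and in 5 of 8 fits without 1 library. Il6st gave 0.05 (SE 0.18, adjusted p = 0.853) and Tnf -0.16 (SE 0.34, adjusted p = 0.745). Il15, a cytokine made by muscle, gave 0.60 (SE 0.29, adjusted p = 0.117), Il18 0.19 (SE 0.20, adjusted p = 0.492) and Il34, which acts on the macrophage receptor Csf1r, 0.87 (SE 0.31, adjusted p = 0.0350). The call of Il34 also ended after rescaling (adjusted p = 0.0517) and in 4 of 8 fits without 1 library. Il4i1, called higher in vehicle TA, shares 77.4% of its exon bases with Tbc1d17 on the opposite strand and 11.2% with Nup62 on its own, so its level is uncertain. Of the 74 members kept, 12 shared exon bases with another protein-coding gene, 4 of them over 10%.

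**Figure D5:**
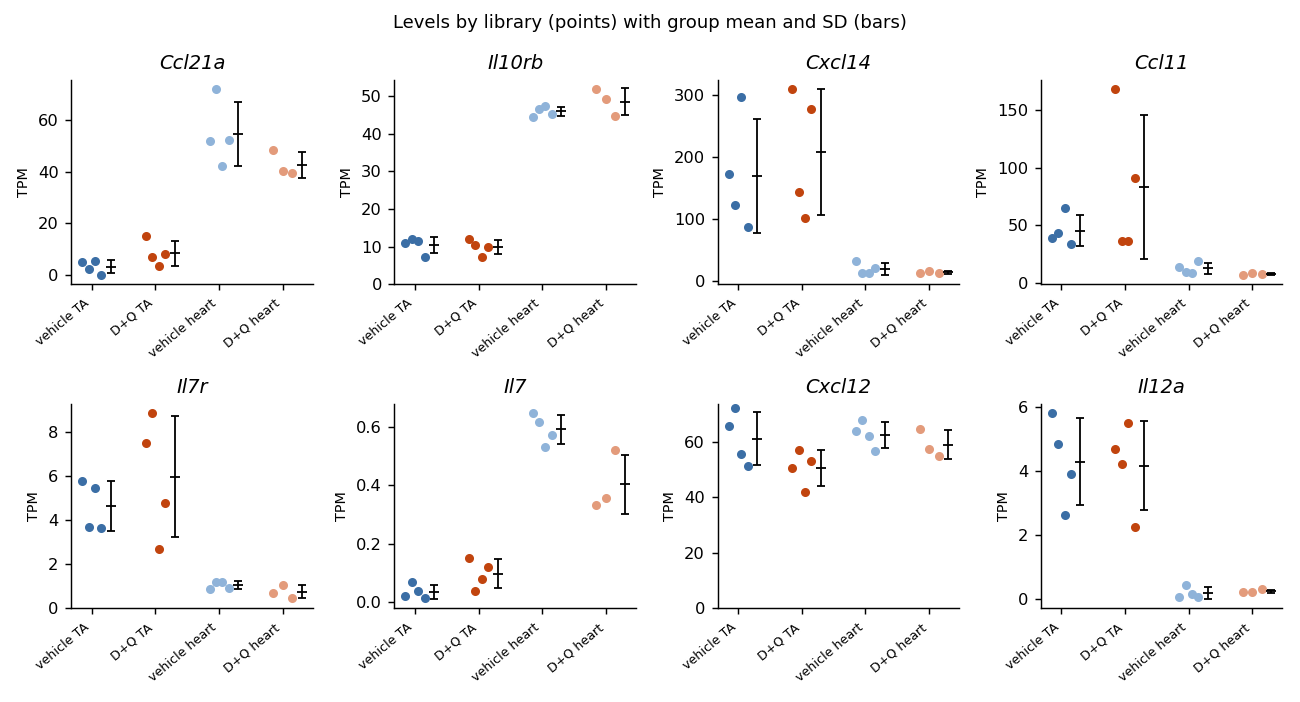
TPM of 8 members in each library of the 4 groups, with group means and SDs as bars to the right of the points. Ccl21a and Il10rb are higher in heart, Cxcl14, Ccl11, Il7r and Il12a in TA, and Cxcl12 lies between 41.9 and 72.1 TPM throughout. Il12a, kept in TA alone, and Il7, kept in heart alone, had to differ and were not tested between tissues.

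The 78 other genes listed for these pathways, covering atypical chemokine receptors, JAK-STAT, feedback inhibitors, MyD88 and NF-kB, other cytokines and processing enzymes, were read from the same fits. None of 76 tested in TA and none of 72 tested in heart was called between D + Q and vehicle, and medians were -0.05 in both tissues. At an unadjusted p under 0.05 there were 0 of 76 in TA (2.99% of all genes) and 19 of 72 in heart (17.6% of all genes). Between TA and heart, 15 of 71 were higher and 4 lower in vehicle mice (22.3% and 11.4% of all genes), and 18 higher and 3 lower in D + Q mice (20.9% and 13.8%). The largest were Csf2rb, the subunit shared by the receptors of GM-CSF, IL-3 and IL-5, at 2.48 (SE 0.34) in vehicle mice, and the STAT3 feedback inhibitor Socs3 at 3.52 (SE 1.04, adjusted p = 0.0134, limma) in D + Q mice. Socs3 was at 364, 32.9, 5.58 and 40.3 TPM in D + Q TA and 19.2, 7.40, 123 and 9.88 TPM in vehicle TA, again highest in D + Q replicates 1 and 4 and vehicle replicate 3, and at 2.02 to 4.56 TPM in heart. Lower in TA were Ifngr2, Pycard, Jak3 and Ackr4, a scavenger of Ccl19 and Ccl21, in vehicle mice, with Ackr4 at -1.45 (SE 0.27).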

How the data were processed

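RNA from TA and heart of DBA/2J-mdx mice was sequenced in 15 libraries. Per the labels and the study's methods, the authors trimmed paired reads with Trim Galore 0.6.10, quantified them with Salmon 1.10.3 on GRCm39 and deposited TPM per gene. The annotation release and the use of strand are not given in the sources used here, and the study's own tests used counts, which were not used here. TPM keeps no depth, so no counting error is given.

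Log2(TPM + 0.5) of genes at 0.5 TPM in at least 3 libraries of a tissue was tested with limma 3.58.1 in R 4.3.3, after a check on simulated data, with 1 surrogate variable in TA and labelled sex in heart. Contrasts between tissues and the interaction used all libraries without a covariate and genes kept in both tissues. P-values were adjusted over all genes. Members, lists and tests were chosen with earlier results of these data known. Members named were those highest by level or spread, those called or without overlap, those kept in 1 tissue, those beside the filter and a set of well-known genes. Ccl12, Ccr1, Il4ra, Il10ra, Il17ra, Il2ra and Il4i1 were also named after their values were seen where no rule covered them. Promoters and transcripts came from GENCODE M39. Alternatives covered the pseudocount, filter, scaling, covariates, trend, replicate block and each library left out. A single gene is counted among the members but not reported here by name.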

Additional observations from a re-analysis of the deposited data

Results flagged for a closer look

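In 8 of 132 groups of 4 libraries, 1 library stood apart from the other 3 by more than Dixon's critical value, which chance does in about 1 in 20 groups. In vehicle TA, replicate 3 was the high library for Ccl9 at 44.7 TPM and for Il6st at 99.1 TPM. In the same group replicate 4 was the low library for Il10rb at 7.24 TPM, Il1rl2 at 2.98 TPM and Il27ra at 0.176 TPM. In D + Q TA, replicate 1 was the high library for Cxcl10 at 5.12 TPM. In vehicle hearts, replicate 2 was the high library for Cxcl5 at 0.515 TPM and Cxcr4 at 8.65 TPM, although Cxcl5 was not kept in heart. Not every member kept was examined. Groups of 3 hearts were not examined in this way.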

How the results depend on the processing

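No called member changed direction under the alternatives run, and the treatment contrasts and the interaction called 0 members in each of them. Between vehicle TA and vehicle heart, members lower in TA numbered 3 with a filter of 1 TPM, which tested 46 members, 8 after median-of-ratios scaling, and 8 where a gene had to be kept in either tissue, which tested 74. Between the D + Q groups they numbered 10 without a filter and 10 with the filter in either tissue. Looser filters also count members that passed through the tissue where they are high, so these larger numbers are in part set by the filter. The cause of the change with scaling was not tested. With 1 library left out, the vehicle groups gave 10 to 15 members higher and 4 to 6 lower, and the D + Q groups 11 to 18 higher and 5 to 9 lower. Replicate numbers are shared between groups only as numbers: deviations of same-numbered libraries correlated at -0.296 to 0.0366 in TA and -0.0364 to 0.0310 in heart. With a replicate block the vehicle groups gave 13 higher and 4 lower and the D + Q groups 18 and 7, the vehicle calls of Ccl6 (adjusted p = 0.0565) and Il2rg (adjusted p = 0.0503, limma) being lost. Shares of all genes called under these alternatives are not given here. The counts therefore do not show whether members moved differently from all genes. Without depth, the precision of low values cannot be given.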
